A study of Homo sapiens with 8 samples.

Results

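Iron handling was followed in sorafenib-resistant liver cancer cells through 10 genes of iron uptake, iron export and hepcidin control, chosen by symbol and found by Ensembl identifier among the 63241 genes measured. They were TF, TFRC, STEAP3, SLC11A2 and SLC39A14 for uptake, SLC40A1 for export, and HAMP, BMP6, TFR2 and HFE for the hormone that controls export. Both lines, HepG2 and Huh7, derive from human liver tumours and are long established. The WT cells were the parental, sorafenib-sensitive cells of each line, labelled as control, and the SR cells were the resistant line grown from each by raising the concentration of sorafenib, a multikinase inhibitor, and labelled with sorafenib as treatment. Whether the drug was present when RNA was taken, and whether each SR line is 1 clone, is not given in the sources used here. Messenger RNA, selected by its poly(A) tail, was sequenced from 2 libraries of WT and 2 of SR cells in either line, and each gene was deposited in FPKM, fragments scaled by transcript length and library total. All libraries carry the same batch label. No source says that the replicates came from separate cultures, so each p-value measures only the spread between these libraries, which may be technical.

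Hepatocytes take up iron bound to transferrin, the plasma carrier that they also secrete, through transferrin receptor 1 (TFRC). In the endosome the ferrireductase STEAP3 reduces the iron and the transporters DMT1 (SLC11A2) and ZIP14 (SLC39A14) carry it across a membrane, ZIP14 also taking up iron that is not bound to transferrin. Iron leaves the cell through ferroportin (SLC40A1), which the liver hormone hepcidin (HAMP) causes to be degraded. Hepcidin transcription follows bone morphogenetic protein signals such as BMP6, in the liver mainly from endothelial cells, and the membrane proteins TFR2 and HFE take part in matching it to circulating iron. Iron regulatory proteins bind stem-loops called iron-responsive elements in the mRNAs of TFRC and SLC40A1 and of both ferritin chains, where they protect the TFRC message and block translation of the others.

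The stem-loops are shown because they are the sites through which cell iron is known to act on the TFRC message and on translation of SLC40A1. GENCODE 29 transcripts were searched on the sense strand for a C, 5 bases, a loop of CAGTG and A, C or T, and 5 bases. The 5 bases on either side of the loop had to be able to pair. The search found 4 matches in the TFRC 3′ UTR, in 3 of its 15 transcripts, and 1 in the SLC40A1 5′ UTR, in 3 of its 7 transcripts. Of 19684 protein-coding genes, 214 (1.09%) held a match in a protein-coding transcript. In TF and SLC39A14, 1 transcript each held a match too, and that of SLC39A14 has no coding sequence, so it does not enter that share. Of the 34 SLC11A2 transcripts 0 held a match, and the other members held none. The rule asks all 5 bases on either side of the loop to pair, so an element with an unpaired base there is missed. A gene without a match may therefore still hold an element, and a gene with matches may hold more. A match describes letters and pairing only. Each is given on the minus strand of GRCh38, read 5′ to 3′, as 29 bases with the loop in capitals:
TFRC, chr3:196050979-196051007: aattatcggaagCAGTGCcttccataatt
TFRC, chr3:196050575-196050603: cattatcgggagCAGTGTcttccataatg
TFRC, chr3:196050510-196050538: ctgtatcggagaCAGTGAtctccatatgt
TFRC, chr3:196050463-196050491: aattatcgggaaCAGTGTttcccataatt
SLC40A1, chr2:189580661-189580689: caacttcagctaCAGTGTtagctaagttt

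The promoter of HAMP is shown because its message varied over the widest range of the 10 on the log2 scale and because letters known from its BMP response (GGCGCC) and its STAT3 response (TTCNNNGAA) lie close together in it. Both motifs read the same on either strand and they do not overlap here. The 250 bases before the RefSeq start (GRCh38.p14, chr19:35282278-35282527, plus strand) hold GGCGCC from 105 to 100 bases and TTCTTGGAA from 93 to 85 bases before the start, both in capitals:
HAMP: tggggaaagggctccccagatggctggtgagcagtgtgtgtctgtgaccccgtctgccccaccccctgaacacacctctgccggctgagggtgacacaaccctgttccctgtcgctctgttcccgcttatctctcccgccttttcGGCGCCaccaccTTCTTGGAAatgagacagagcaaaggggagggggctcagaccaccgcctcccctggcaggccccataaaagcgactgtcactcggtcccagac
GGCGCC was found in the same window of 19.0% of 27305 genes, TTCNNNGAA in 8.09% and both in 1.19%. Of the 8 members with a promoter in the table, 4 held GGCGCC (HAMP, STEAP3, TF and TFRC) and HAMP alone held TTCNNNGAA. Of 8 BMP SMAD target genes, BAMBI held GGCGCC and ID3 held TTCNNNGAA.

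The libraries did not fall into the groups of their labels. Pearson's r of log2(FPKM + 1) across tested genes lay between 0.914 and 0.977 among 5 libraries, namely both of HepG2 WT, replicate 1 of HepG2 SR and replicate 2 of either Huh7 group. The first replicates of Huh7 WT and SR correlated at 0.965 and had an r of 0.731 to 0.783 with those 5, and HepG2 SR replicate 2 had an r of 0.775 to 0.846 with every other library. The groups remain those of the labels, and results are also given with these expression profiles as a term in the model and within the 5 libraries of the first profile, an alternative added after the values were seen. HepG2 SR replicate 2 is the only library of its profile, so with profile as a term it adds nothing to the SR change. Depth, estimated from the spacing of low FPKM values, lay between 27.8 and 54.5 M reads, and 12829 to 13386 genes reached an FPKM of 1. HepG2 WT replicate 2, the shallowest, listed 38276 genes above 0, against 27188 to 29071 in the others. Summed FPKM was higher in every SR library (411763 to 429111) than in every WT library (384792 to 403905), a difference that rescaling to TPM removes. Of 10 hepatocyte markers, 10 reached 1 FPKM in at least 1 library of each group, but their summed level was 7097 and 9635 FPKM in HepG2 WT, 10111 and 7996 in HepG2 SR, 606 and 2674 in Huh7 WT and 1025 and 10252 in Huh7 SR. Of these markers, 6 of 10 were lower in both Huh7 libraries of replicate 1 than in every other library, among them ALB, which encodes albumin, at 11.98 and 42.3 FPKM against 604 to 4713 FPKM. FGB, a fibrinogen chain, was higher there than in every other library, at 380 and 327 FPKM against 0.386 to 128 FPKM, and HNF4A overlapped with the others, at 32.2 and 55.7 FPKM against 22.2 to 68.5 FPKM. The summed levels of the other marker lists were at most 4.93 FPKM for 5 fibroblast or stellate markers, 4.58 for 4 endothelial markers and 1.16 for 4 erythroid markers. They reached 29.3 FPKM for 5 macrophage markers, of which CD68 alone gave up to 29.1, and 15.5 to 904 FPKM for 4 cholangiocyte markers. In bulk RNA, fewer cells of a type and less RNA per cell cannot be told apart.

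SR was compared with WT by limma on log2(FPKM + 1), fitting 4 group means over the 15173 genes that reached an FPKM of 1 in 2 or more libraries. All 10 genes passed that filter, BMP6 through 3 Huh7 libraries alone. A gene was called where it had a log2 change of at least 0.5, or under -0.5, and an unadjusted p under 0.05, the thresholds of the study. In HepG2, 1 of 10 was called, SLC39A14 (higher), where 2.14% of all tested genes were called. In Huh7, 2 of 10 were called, TF (higher) and BMP6 (lower), where 1.87% of all were. Over both cell lines, TF alone was called, where 3.93% of all were. No gene of the 15173 had an adjusted p under 0.05 from limma in any comparison, with 325 genes in HepG2, 283 in Huh7 and 597 over both lines at an unadjusted p under 0.05. Each count is a smaller share than the 0.05 that such a threshold would pass if no gene changed. The calls below are therefore calls of single genes at an unadjusted threshold. Where 1 library is left out, its group is a single library, assumed to vary like the libraries of the other groups.

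**Figure D1:**
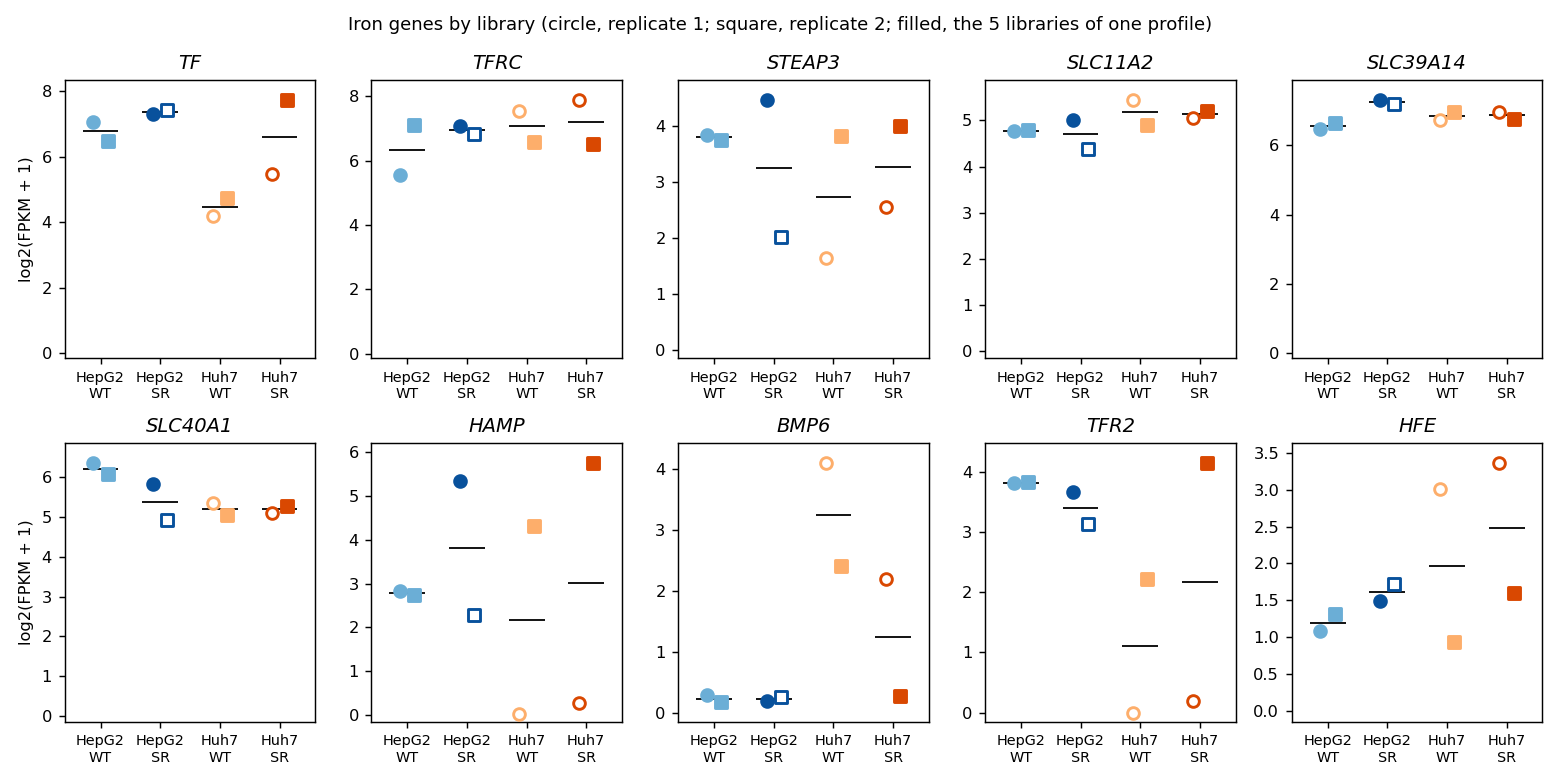
Expression of the 10 iron genes as log2(FPKM + 1) in each of the 8 libraries, by labelled group. Circles are replicate 1, squares replicate 2, bars group means, and filled symbols the 5 libraries of one expression profile. SLC39A14 lay higher in both HepG2 SR libraries (146 and 158 FPKM) than in both HepG2 WT libraries (88.0 and 98.7 FPKM), whereas HAMP ranged from 0.0134 to 52.5 FPKM with the 2 lowest values in the open Huh7 symbols.

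The log2 change had a median of 0.20 over the 10 genes in HepG2, against -0.03 over all tested genes, of 0.32 in Huh7, against -0.05, and of 0.34 over both lines, against -0.05. Both SR libraries lay outside the range of WT for 5 of 10 genes in HepG2, HFE, TF and SLC39A14 above and TFR2 and SLC40A1 below, where 38.2% of all tested genes did so. The same held in Huh7 for 2 of 10, TF above and BMP6 below, where 22% of all did. For 0 of 10 genes did the 4 SR libraries lie outside the 4 WT libraries, where 3.68% of all did.

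**Figure D2:**
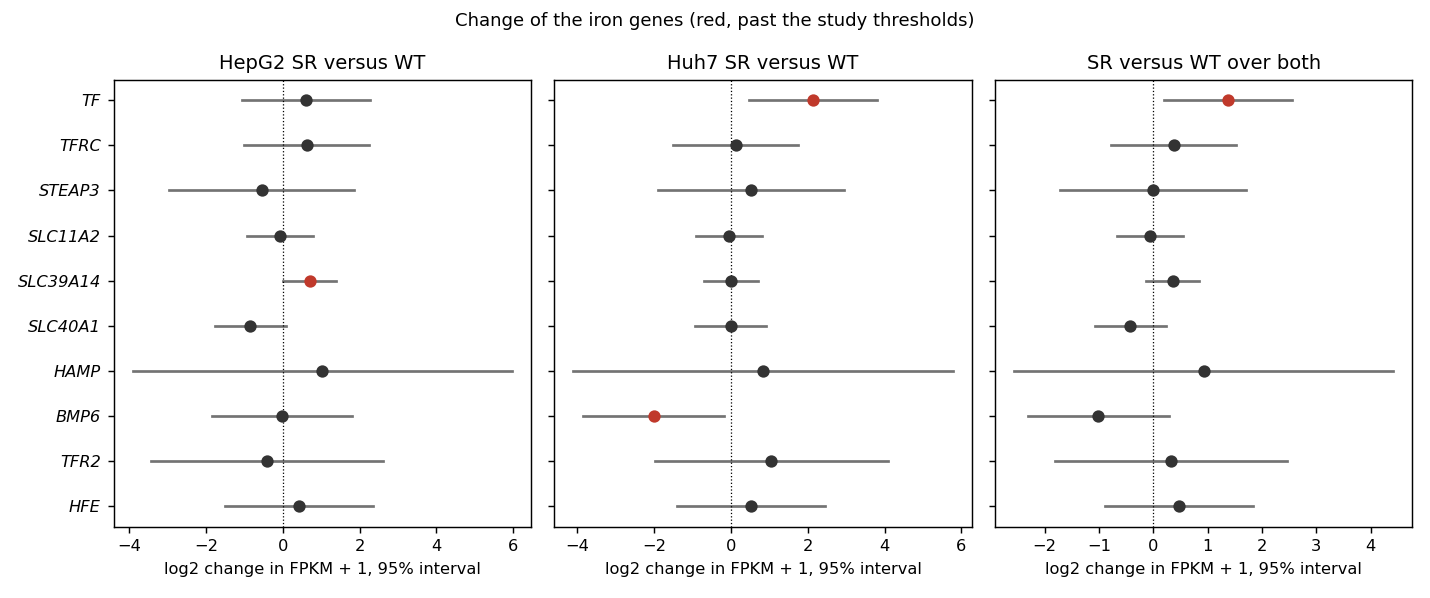
Log2 change of FPKM + 1 from WT to SR for the 10 iron genes in HepG2, in Huh7 and over both cell lines, from limma, with 95% intervals as lines. Red points passed the study's unadjusted thresholds. The intervals of HAMP were the widest, from -3.91 to 5.96 in HepG2, and those of SLC39A14 the narrowest.

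TF (ENSG00000091513, chromosome 3, 133745956 to 133796640, plus strand, GRCh38) encodes transferrin. It stood at 132 and 88.9 FPKM in HepG2 WT, with 158 and 171 FPKM in HepG2 SR. In Huh7 WT it stood at 17.4 and 26.0 FPKM, and in Huh7 SR at 43.9 and 211 FPKM. Both SR libraries were thus above both WT libraries in each line, and every Huh7 library was below every HepG2 library except Huh7 SR replicate 2, the highest of the 8. TF rose in Huh7 SR by a log2 change of 2.13 (SE 0.70, adjusted p = 0.99996 from limma) and over both lines by 1.37 (SE 0.50, adjusted p = 0.998 from limma). In HepG2 the log2 change was 0.60 (SE 0.70). The exact permutation test of the 4 SR against the 4 WT libraries, two-sided, gave p = 0.171, and permuting within cell lines gave p = 0.0556, the smallest which that scheme allows. Without Huh7 SR replicate 2 the change in Huh7 was 1.01 and without Huh7 WT replicate 1 it was 1.85, neither of them called, and without Huh7 SR replicate 1 it was 3.25. Over both lines, the call was lost without HepG2 WT replicate 2 (1.22), HepG2 SR replicate 1 (1.39), HepG2 SR replicate 2 (1.34) or Huh7 WT replicate 1 (1.23), and the value moved to 0.80 without Huh7 SR replicate 2. With profile as a term it was 1.38, which was called, and in the 5 libraries of one profile 1.42, which was not. The summed hepatocyte markers were also highest in Huh7 SR replicate 2 among the Huh7 libraries, and their part in the rise of TF was not tested. TF shares 112 exon bases with SRPRB and 191 with the pseudogene TFP1 on the same strand, so its reads could have been split.

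TFRC (chromosome 3, 196027183 to 196082189, minus strand), the main receptor for iron-loaded transferrin, was by group mean among the 3 most abundant of the 10 in every group, although in HepG2 WT replicate 1 it lay below TF, SLC39A14 and SLC40A1. HepG2 WT held the lowest library, 45.6 FPKM, beside one of 138 FPKM, and HepG2 SR stood at 134 and 112 FPKM. Huh7 WT stood at 186 and 95.5 FPKM and Huh7 SR at 235 and 89.7 FPKM. The groups overlapped in each line, and the 2 highest values were those of Huh7 replicate 1. The log2 change was 0.62 (SE 0.68) in HepG2 and 0.12 (SE 0.68) in Huh7, and its 95% interval over both lines ran from -0.78 to 1.52. The HepG2 value was -0.17 without WT replicate 1, and the Huh7 value -0.36 without WT replicate 2 and -0.57 without SR replicate 1.

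STEAP3 (chromosome 2, 119223831 to 119265652, plus strand), the endosomal ferrireductase, stood at 13.4 and 12.6 FPKM in HepG2 WT, with 21.3 and 3.07 FPKM in HepG2 SR. In Huh7 it stood at 2.14 and 13.3 FPKM in WT and at 4.86 and 15.1 FPKM in SR. The 3 lowest values were those of the 3 libraries outside the first profile. The log2 change was -0.55 (SE 1.02) in HepG2, 0.53 (SE 1.02) in Huh7 and -0.01 (SE 0.72) over both lines. The HepG2 value was 0.67 without SR replicate 2, and the Huh7 value -0.56 without WT replicate 1 and -0.19 without SR replicate 2. With profile as a term STEAP3 was called higher in SR, at 0.57 (SE 0.21, adjusted p = 0.508 from limma), where that model called 8.21% of all tested genes. That estimate takes nothing from HepG2 SR replicate 2, the only library of its profile, where STEAP3 stood at 3.07 FPKM. Within the first profile the 3 WT libraries held 12.6 to 13.4 FPKM and the 2 SR libraries 21.3 and 15.1 FPKM, a log2 change of 0.43 that was not called. STEAP3 shares 500 exon bases with STEAP3-AS1 on the opposite strand, and no source says that strand was used in counting, so reads of the pair cannot be told apart.

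SLC11A2 (chromosome 12, 50979401 to 51028566, minus strand), which encodes DMT1, varied little. It stood at 26.5 FPKM in both HepG2 WT libraries, at 31.3 and 19.9 FPKM in HepG2 SR, at 42.6 and 28.995 FPKM in Huh7 WT and at 32.4 and 35.6 FPKM in Huh7 SR. The SR libraries lay on both sides of WT in HepG2 and within its range in Huh7. The log2 change was -0.08 (SE 0.36) in HepG2 and -0.05 (SE 0.36) in Huh7, and the 95% interval over both lines, -0.67 to 0.54, leaves room for a change past the threshold of 0.5 in either direction. Without HepG2 SR replicate 2 the HepG2 value was 0.23, and without Huh7 WT replicate 1 the Huh7 value was 0.22.

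SLC39A14 (chromosome 8, 22367249 to 22434129, plus strand), which encodes ZIP14, stood at 88.0 and 98.7 FPKM in HepG2 WT, with 158 and 146 FPKM in HepG2 SR. The WT mean was 93.4 ± 7.60 FPKM (SD, n = 2). The SR mean was 152 ± 8.26 FPKM (SD, n = 2). In Huh7 it stood at 106 and 124 FPKM in WT and at 125 and 107 FPKM in SR. The HepG2 groups were apart and the Huh7 groups overlapped almost fully, and the highest library was only 1.79 times the lowest, the narrowest range of the 10. SLC39A14 rose in HepG2 SR by a log2 change of 0.70 (SE 0.29, adjusted p = 0.956 from limma), with a 95% interval that reached almost to 0, and changed by 0.01 (SE 0.29) in Huh7. The difference between the lines was -0.69 (SE 0.41) and was not called. The call in HepG2 was lost with any 1 of the 8 libraries left out, at log2 changes of 0.61 without HepG2 WT replicate 1, 0.78 without HepG2 WT replicate 2, 0.64 without HepG2 SR replicate 1, 0.75 without HepG2 SR replicate 2 and 0.70 without any Huh7 library. The sign of the Huh7 value turned without WT replicate 1 (-0.11) or SR replicate 1 (-0.10), with rescaling to TPM (-0.083) and with quantile normalization (-0.056). The exact permutation test of 4 against 4 libraries, two-sided, gave p = 0.0571, where the smallest possible is 0.0286. For the 8 genes other than TF and SLC39A14 that permutation test gave p between 0.229 (SLC40A1) and 1.0 (STEAP3).

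SLC40A1 (chromosome 2, 189560579 to 189583758, minus strand), which encodes the iron exporter ferroportin, stood at 80.9 and 67.0 FPKM in HepG2 WT, with 55.6 and 29.3 FPKM in HepG2 SR. In Huh7 it stood at 40.1 and 32.1 FPKM in WT and at 33.6 and 38.1 FPKM in SR. Both HepG2 SR libraries were below both WT libraries, and the Huh7 groups overlapped. The HepG2 log2 change of -0.85 (SE 0.39, adjusted p = 0.956 from limma) did not pass the threshold, and that in Huh7 was -0.01 (SE 0.39). The HepG2 value was -1.30, which was called, without SR replicate 1 and -0.40 without SR replicate 2, the library that stood apart. Quantile normalization called it, at -0.94, and over both lines, where the change was -0.43 (SE 0.27), it was called without HepG2 SR replicate 1 (-0.65). The Huh7 value was 0.15 without WT replicate 1. The difference between the lines was 0.84 (SE 0.55) and was not called.

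HAMP (chromosome 19, 35280716 to 35285143, plus strand), which encodes hepcidin, stood at 6.13 and 5.69 FPKM in HepG2 WT, with 39.2 and 3.89 FPKM in HepG2 SR. In Huh7 it stood at 0.0134 and 18.9 FPKM in WT and at 0.205 and 52.5 FPKM in SR. The values followed the profiles: both Huh7 libraries of replicate 1 were under 1 FPKM, HepG2 SR replicate 2 had the next lowest value, and the 5 libraries of the first profile held 5.69 to 52.5 FPKM. The log2 change was 1.02 (SE 2.08) in HepG2, 0.84 (SE 2.08) in Huh7 and 0.93 (SE 1.47, adjusted p = 0.998 from limma) over both lines, differences well within the spread between replicates. Without HepG2 SR replicate 1 the HepG2 value was -0.50, leaving out Huh7 WT replicate 1 or Huh7 SR replicate 2 turned the Huh7 value to -1.31 or -1.90, and the same Huh7 libraries turned the value over both lines to -0.14 or -0.44.

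Among the 5 libraries of the first profile, the 3 WT libraries held 6.13, 5.69 and 18.9 FPKM of HAMP and the 2 SR libraries 39.2 and 52.5 FPKM, so that SR lay above WT without overlap. The log2 change there was 2.24 (SE 0.53, adjusted p = 0.843 from limma), and HAMP was the 1 gene of the 10 that was called, where that model called 5.06% of all tested genes. TF, STEAP3, SLC11A2 and HFE too were higher in both SR libraries of that profile than in its 3 WT libraries. The share of all tested genes that lay apart in this way was not computed, so the separation is not read as a result about these genes. With 2 libraries against 2 in HepG2, 38.2% of all tested genes lay apart. With profile as a term the log2 change of HAMP was 1.65 (SE 0.51, adjusted p = 0.492 from limma). TF and STEAP3 were called with HAMP, where that model called 8.21% of all tested genes. The HAMP value takes nothing from HepG2 SR replicate 2, the only library of its profile, where HAMP stood at 3.89 FPKM. Both settings set aside the label of the cell line, and neither reached an adjusted p under 0.05. HAMP shared no exon bases with another gene.

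**Figure D3:**
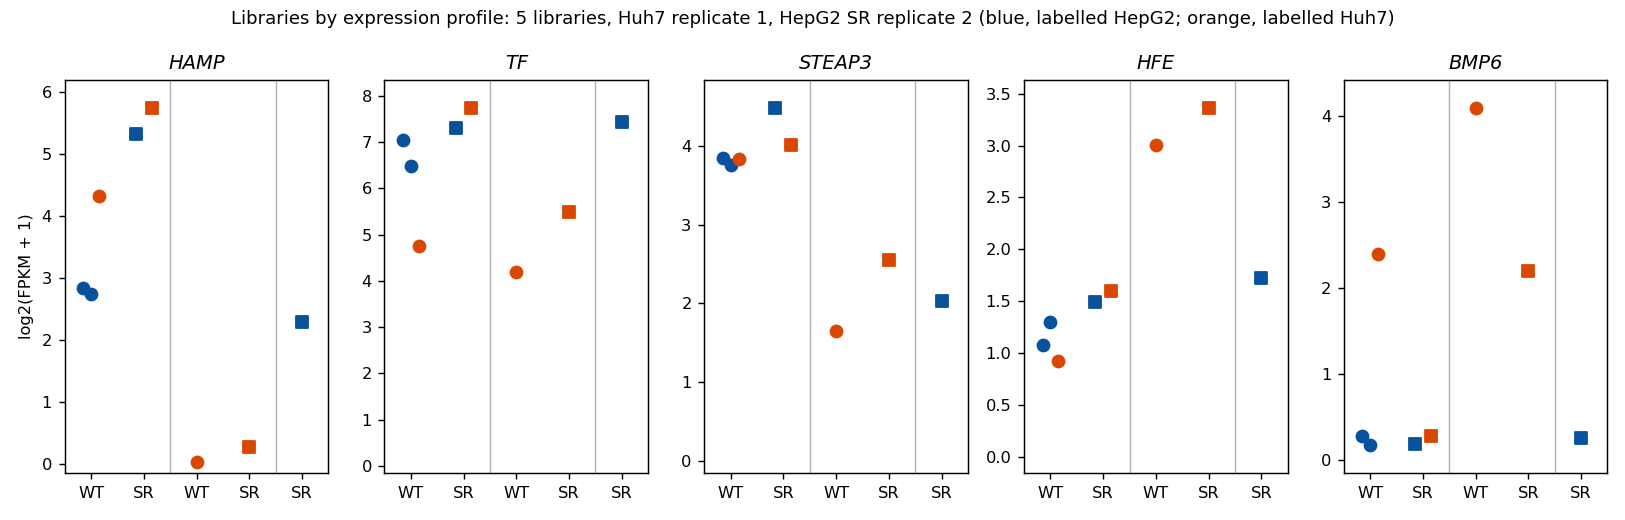
Log2(FPKM + 1) of 5 iron genes with the libraries set out by expression profile, the vertical lines parting the 5 libraries of the first profile, the Huh7 libraries of replicate 1 and HepG2 SR replicate 2. Circles are WT, squares SR, blue symbols are labelled HepG2 and orange symbols Huh7. In the first profile HAMP stood at 5.69 to 18.9 FPKM in WT and at 39.2 and 52.5 FPKM in SR, and BMP6 was above 1 FPKM in 1 WT library of that profile and in both Huh7 libraries of replicate 1.

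BMP6 (chromosome 6, 7726797 to 7881422, plus strand), a ligand that raises hepcidin, was close to silent in HepG2, at 0.215 and 0.133 FPKM in WT and at 0.139 and 0.190 FPKM in SR. In Huh7 it stood at 16.1 and 4.29 FPKM in WT and at 3.59 and 0.213 FPKM in SR. Both Huh7 SR libraries were below both WT libraries, and SR replicate 2 was at the level of HepG2. BMP6 fell by 2.01 on the log2 scale in Huh7 SR (SE 0.77, adjusted p = 0.99996 from limma). It changed by -0.01 (SE 0.77) in HepG2, a value whose sign turned with quantile normalization (0.16). BMP6 passed the filter through its Huh7 libraries alone. The SE pools all 4 groups, so it includes the HepG2 libraries, which hardly varied near 0 FPKM. With Huh7 fitted alone BMP6 was not called. The Huh7 value was -1.05 without SR replicate 2, -1.16 without WT replicate 1, -2.97 without SR replicate 1 and -2.86 without WT replicate 2. The call was lost without SR replicate 2 or WT replicate 1, and also without any 1 HepG2 library, where the value stayed at -2.01. Over both lines the change was -1.01 (SE 0.54), not called, and it was called without Huh7 WT replicate 2 (-1.44) or Huh7 SR replicate 1 (-1.49). Endothelial markers, summed, held 4.58 and 1.48 FPKM in Huh7 WT and 3.03 and 0.867 FPKM in Huh7 SR, with PECAM1 at up to 4.28 FPKM, and their part in the fall of BMP6 was not tested.

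TFR2 (chromosome 7, 100620416 to 100642779, minus strand), the liver form of the transferrin receptor, stood at 13.0 and 13.2 FPKM in HepG2 WT, with 11.7 and 7.80 FPKM in HepG2 SR. In Huh7 WT replicate 1 it was listed at 0 and in replicate 2 at 3.64 FPKM, and Huh7 SR stood at 0.139 and 16.7 FPKM. As for HAMP, both Huh7 libraries of replicate 1 were the lowest. The log2 change was -0.41 (SE 1.27) in HepG2 and 1.06 (SE 1.27) in Huh7. The Huh7 value was 3.04, which was called, without SR replicate 1, -0.05 without WT replicate 1 and -0.92 without SR replicate 2. HFE (chromosome 6, 26087281 to 26098343, plus strand), the membrane protein lost in the common form of hereditary haemochromatosis, stood at 1.11 and 1.47 FPKM in HepG2 WT, with 1.81 and 2.30 FPKM in HepG2 SR, 7.02 and 0.90 FPKM in Huh7 WT and 9.30 and 2.03 FPKM in Huh7 SR. Both HepG2 SR libraries were above WT, and in Huh7 the 2 highest values were those of replicate 1, opposite to HAMP and TFR2. The log2 change was 0.41 (SE 0.81) in HepG2, 0.52 (SE 0.81) in Huh7 and 0.47 (SE 0.57) over both lines. The Huh7 value was -0.52 without WT replicate 2 and -0.37 without SR replicate 1. With profile as a term it was 0.42 (SE 0.18, adjusted p = 0.534 from limma), under the threshold for a call.

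Between the cell lines, BMP6 and TF met the thresholds, where 4.9% of all tested genes did. BMP6 was tested through its Huh7 values alone, so its log2 difference of 2.02, higher in Huh7, is given as a description with no test. TF had a log2 difference of -1.53 (SE 0.50, adjusted p = 0.813 from limma), lower in Huh7, and its call was lost without HepG2 WT replicate 1 (-1.39) or Huh7 WT replicate 1 (-1.39), and the value was -0.97 without Huh7 SR replicate 1. TFR2 differed by -1.97 (SE 0.90), was not called, and was called without Huh7 WT replicate 2 (-2.52) or Huh7 SR replicate 2 (-2.96). The difference of the SR response between the lines was called for 0 of 10 genes, where 0.606% of all were. It was 1.53 (SE 0.99) for TF. For BMP6 it was -2.001, given as a description with no test, because BMP6 held only 0.133 to 0.215 FPKM in HepG2. That value repeats the Huh7 change of -2.01. Without Huh7 SR replicate 1 the difference was 2.65 for TF and -2.96 for BMP6, and without Huh7 WT replicate 2 it was -2.85 for BMP6.

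FPKM is a per-length scale, so levels are set side by side here. The order depends on the transcript lengths used, which are not given. Reads of TF and STEAP3 could also be shared with overlapping genes. In HepG2 WT, TF, SLC39A14, TFRC and SLC40A1 overlapped between 45.6 and 138 FPKM, SLC11A2 stood apart below them at 26.5 FPKM, TFR2 and STEAP3 overlapped between 12.6 and 13.4 FPKM, and HAMP, HFE and BMP6 followed without overlap. In HepG2 SR the top 3, TF, SLC39A14 and TFRC, did not overlap, and SLC40A1, SLC11A2, HAMP, STEAP3 and TFR2 overlapped in turn between 3.07 and 55.6 FPKM. In Huh7 WT and SR alike, TFRC and SLC39A14 were among the top 3 by group mean and SLC40A1 and SLC11A2 overlapped, between 28.995 and 42.6 FPKM. In Huh7 WT, BMP6, HAMP, STEAP3, HFE and TFR2 overlapped in turn at 18.9 FPKM and below. In Huh7 SR, HAMP, STEAP3, TFR2, HFE and BMP6 did so at 52.5 FPKM and below. By group mean TF held the fifth rank in Huh7 WT and the second in Huh7 SR, where it overlapped TFRC and SLC39A14 and, in replicate 1, lay below both.

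The pathway around the 10 genes gave 0 calls in HepG2, in Huh7 or over both lines in any of 7 further lists, so that 2 genes with the largest change over both lines are named for each. In hepcidin control, 14 of 16 listed genes were tested, with a median log2 change of -0.10 over both lines and 6 higher. IL6R, a receptor chain for interleukin 6, changed by -0.69 (SE 0.69) and NEO1, the neogenin receptor that binds hemojuvelin, by -0.55 (SE 0.47). HJV, the hemojuvelin gene, was at most 0.276 FPKM and was not tested. BMP2, a BMP ligand that was not tested either, stood at 14.9 FPKM in HepG2 SR replicate 2 and under 1 FPKM in the other 7 libraries.

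All 8 BMP SMAD target genes, which report the signal that also drives HAMP, were tested. Their median log2 change was 0.53 over both lines, with 6 higher, 0.20 in HepG2 with 4 higher, and 0.55 in Huh7 with 7 higher, against medians of all tested genes of -0.05, -0.03 and -0.05. In Huh7 the shift lay between the libraries of replicate 2, both of the first profile, where the median difference of SR from WT was 1.12 with 7 of 8 higher, against -0.11 over all tested genes. Between the Huh7 libraries of replicate 1, both of the other profile, it was -0.060 with 6 of 8 lower, against 0.0 over all. In HepG2 replicate 1, both libraries of the first profile, it was -0.022 with 4 of 8 higher, against 0.0 over all. In HepG2 replicate 2 it was 0.54 with 6 of 8 higher, against -0.052 over all. That comparison crosses profiles, as HepG2 SR replicate 2 is the only library of its profile. HAMP went from 6.13 FPKM in WT to 39.2 in SR in HepG2 replicate 1, and from 5.69 to 3.89 in replicate 2. ID1, an inhibitor of differentiation, stood at 213 and 192 FPKM in HepG2 WT, with 247 and 308 FPKM in HepG2 SR, 319 and 63.2 FPKM in Huh7 WT and 317 and 382 FPKM in Huh7 SR. Its log2 change over both lines was 0.87 (SE 0.49), and that of BAMBI, a decoy BMP receptor, was 0.91 (SE 0.85). With profile as a term the targets SMAD9 (0.66) and ATOH8 (0.68) and the receptor gene BMPR1A (0.74) were called higher, where 8.21% of all tested genes were called, and within the first profile SMAD9 (0.94) was, where 5.06% were. These genes were picked out after their values were seen. The profile term takes nothing from HepG2 SR replicate 2, which held 0.0772 FPKM of ATOH8, 3.48 of SMAD9 and 4.39 of BMPR1A.

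In iron sensing, 9 of 9 genes were tested, with a median of 0.19 and 6 higher over both lines. ACO1, iron regulatory protein 1, changed by 0.30 (SE 0.48) and CIAO2A, an iron-sulfur assembly factor, by 0.43 (SE 0.31). Of other uptake and ferrireduction genes 10 of 13 were tested, with a median of 0.14. HP, which encodes haptoglobin, changed by 1.82 (SE 1.22) over both lines and was listed at 0 and at 0.890 FPKM in Huh7 WT, at 0.0289 and 42.8 FPKM in Huh7 SR and at 6.57 to 60.9 FPKM in HepG2. HPX, hemopexin, changed by 1.19 (SE 1.16). In other export and ferroxidase genes 5 of 7 were tested, with a median of -0.05. CP, the ferroxidase ceruloplasmin, changed by 1.91 (SE 1.24), and the haem transporter gene FLVCR2 by -0.85 (SE 0.60). FLVCR2 was called lower with profile as a term (-0.69) and within the first profile (-0.84). All 12 genes of the endosome cycle and iron chaperones were tested, with a median of 0.04, SLC48A1, a haem transporter gene, at -0.89 (SE 0.44) and NDFIP2, an adaptor for ubiquitin ligases, at -0.45 (SE 0.28). Of mitochondrial iron genes 9 of 10 were tested, with a median of -0.13, FECH, ferrochelatase, at -0.53 (SE 0.41) and SLC25A28, mitoferrin 2, at 0.48 (SE 0.32). Between the cell lines as labelled, which the expression profiles did not follow, 5 of the 67 tested genes of these lists were called. That count is read against the same 4.9% of all genes. NDFIP2 (0.72) was higher in Huh7, and NCOA4 (-1.10), the receptor for ferritin autophagy, FBXL5 (-0.63), which marks iron regulatory protein 2 for degradation, LRP1 (-0.86), a receptor for hemopexin-bound haem, and HP (-3.50) were lower.

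**Figure D4:**
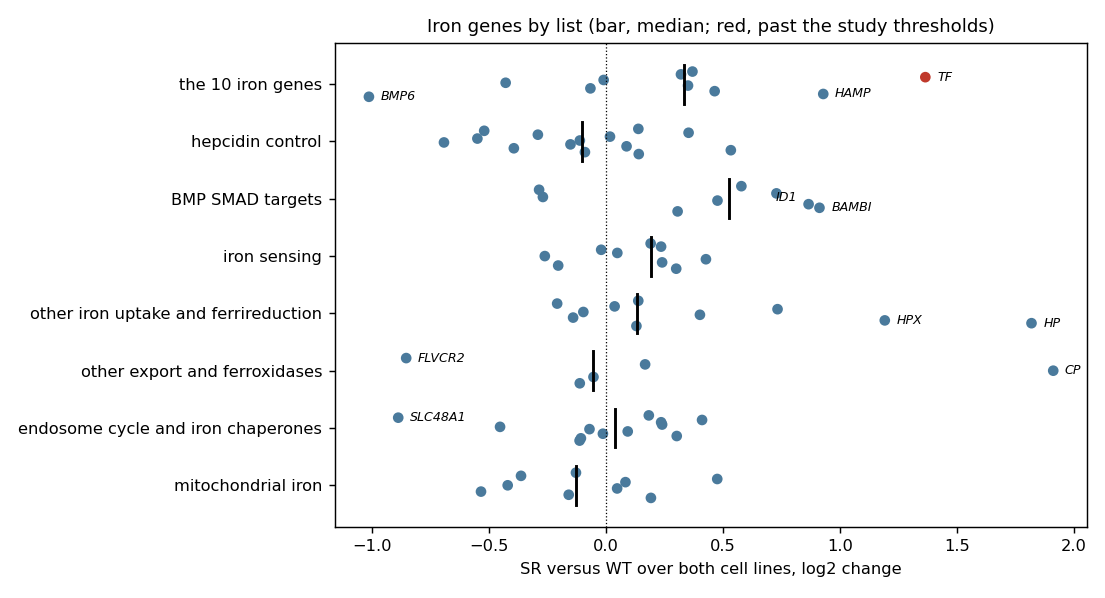
Log2 change from WT to SR over both cell lines, from limma, of each tested gene in the 10 iron genes and in 7 further lists of the pathway. Each point is a gene, each bar the median of its list, and genes past 0.84 in either direction are named. TF is the 1 gene past the study's thresholds, and the BMP SMAD targets have the highest median, 0.53.

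Genes with the most similar pattern over the 8 libraries were found by the root mean square difference of log2(FPKM + 1) after centring each gene. For TF they were FGL1 (0.25), GAMT (0.36) and SERPINA6 (0.41), where TF itself had an SD of 1.33. For TFRC they were POLD3 (0.18), QPCTL (0.26) and ANAPC15 (0.26), and for SLC40A1 EXOC3-AS1 (0.11), LMAN2L (0.14) and TSPAN9 (0.15). HAMP had no close neighbour on this measure, the nearest being AKR1C1 (0.74), SLC47A1 (0.76) and ASPSCR1 (0.81) against an SD of 2.12. The libraries share depth and profile, so these distances describe the 8 libraries only.

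**Figure D5:**
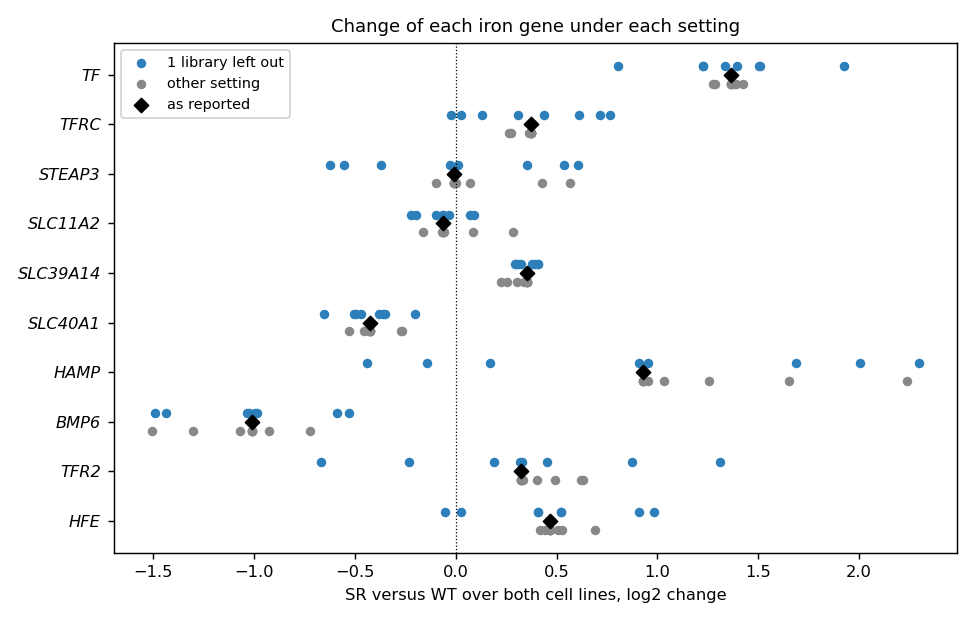
Log2 change from WT to SR over both cell lines for each of the 10 iron genes, as reported (diamonds), with 1 library left out (blue points) and under the other settings (grey points). TF, SLC39A14, SLC40A1 and BMP6 kept their sign at every setting shown, and HAMP ran from -0.44 to 2.30 with 1 library left out.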

How the data were processed

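Messenger RNA was profiled in 8 libraries, 2 of WT and 2 of SR cells in either cell line, and the groups follow the labels alone. The authors deposited FPKM for every gene of each library with replicates kept separate, so depth and transcript length were already divided out. The submitters' processing notes name fastp 0.20.0 and GRCh38. The aligner, quantification tool and annotation are not given in the sources used here. The study's methods name FPKM normalization and edgeR for differential expression, without stating the input of edgeR. FPKM are not counts, so limma 3.58.1 in R 4.3.3 (lmFit, eBayes with trend) was used on log2(FPKM + 1), a scale on which changes of low genes come out too small.

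The 15173 genes that reached an FPKM of 1 in 2 or more libraries were kept, a model of 4 group means was fitted, p-values were adjusted by Benjamini-Hochberg over all tested genes, and exact permutation tests compared the libraries for single genes. The 10 genes and the lists were chosen with earlier results of these data known. Named genes were the 10, every gene of each further list called in HepG2, in Huh7 or over both lines, or else the 2 with the largest change over both lines, and for TF, TFRC, SLC40A1 and HAMP the 3 nearest in pattern. BMPR1A, SMAD9, ATOH8, NCOA4, FBXL5, LRP1, HJV and BMP2 were named after their values were seen.

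Alternatives were a pseudocount of 0.1, a lower filter (FPKM 0.1) and none, TPM rescaling, quantile normalization, eBayes without trend, replicate blocks, each line alone, the adjusted p, expression profile (libraries linked by an r above 0.9) as a term, and each library left out. The fit was tested on simulated data. Positions came from GENCODE 29 (58228 of 63241 identifiers), and promoters from RefSeq (8 of 10 genes matched). Depth carries no interval here, and intervals are 95% intervals of limma. Tables used Python 3.11.15 with NumPy 2.4.6 and pandas 2.3.3, figures matplotlib 3.10.9.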

Additional observations from a re-analysis of the deposited data

Results flagged for a closer look

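In 3 of 20 sets of 4 libraries, the 10 genes in WT and in SR, 1 library stood far from the other 3 on the log2(FPKM + 1) scale by the 95% critical value of Dixon's test, where chance flags about 1 in 20 sets. BMP6 among the 4 SR libraries was high in Huh7 SR replicate 1, with a gap of 0.955 of the range on that scale, at 3.59 FPKM against 0.139 to 0.213 FPKM. HFE among the SR libraries was also high in Huh7 SR replicate 1, with a gap of 0.877, at 9.30 FPKM against 1.81 to 2.30 FPKM. STEAP3 among the 4 WT libraries was low in Huh7 WT replicate 1, with a gap of 0.961, at 2.14 FPKM against 12.6 to 13.4 FPKM. These libraries are the Huh7 libraries of replicate 1 that stood apart in expression profile.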

How the results depend on the processing

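The limits are those of 2 libraries per group and of libraries that do not follow their labels. Calls rest on unadjusted p, the interval of HAMP spans changes of either sign, and genes near 0 FPKM (BMP6 in HepG2, HAMP and TFR2 in Huh7 replicate 1) have values that turn on few reads. No cause of the changes below was tested unless the setting itself shows it. At an adjusted p under 0.05 the number called was 0 of the 10 and 0 of all genes in every comparison.

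Of the 10 genes, the 1 called in HepG2 became 0 with a filter at an FPKM of 0.1, TPM rescaling or eBayes without trend, the 2 in Huh7 became 1 with a pseudocount of 0.1 (BMP6 was lost) and 0 with each line fitted alone, and the 1 over both lines became 3 with profile as a term (1245 of all genes). Over all genes, the filter at 0.1 gave 504 calls in HepG2 (325 as reported) and 254 for the difference between the lines (92 as reported), no filter gave 168 for that difference, and each line alone gave 124 in Huh7 (283 as reported). Counts over all genes as reported were 596 over both lines and 744 between the lines. TPM rescaling put the median change of all genes at -0.12 in HepG2, -0.14 in Huh7 and -0.14 over both lines. Signs turned for BMP6 in HepG2 (0.16), SLC40A1 (0.031) and SLC39A14 (-0.056) in Huh7 and STEAP3 over both lines (0.072) with quantile normalization, for SLC39A14 in Huh7 with TPM rescaling (-0.083), for SLC11A2 (0.086) and STEAP3 (0.57) over both lines with profile as a term, and for both (0.28 and 0.43) within the 5 libraries of one profile, a setting chosen after seeing the data.

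The replicate numbers are shared by WT and SR in the labels, but nothing says that a number marks a shared culture or day. The deviations of same-numbered libraries had an r of 0.12 in HepG2 and 0.80 in Huh7, with 2 pairs in each line, too few to take the numbers as pairs. With the number as a block, 0 of the 10 were called in HepG2 and TFR2 was called between the lines (-1.97). With a block for each same-numbered pair within a line, 2 of the 10 were called over both lines (TF and BMP6) and 1 for the difference between the lines (BMP6), in HepG2 SLC40A1 was called in place of SLC39A14, and the calls over all genes were 1392 in HepG2, 669 in Huh7, 1509 over both lines and 535 for the difference. The BMP6 difference between the lines repeats its Huh7 change, as its HepG2 values lie near 0 FPKM. Each replicate number holds 1 WT and 1 SR library in each line, so block fits leave every log2 change as it was. No sign of the 10 could therefore turn with a block.

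With 1 library left out, the number called of the 10 ran from 0 to 1 in HepG2, 0 to 3 in Huh7, 0 to 2 over both lines, 0 to 3 for the difference and 1 to 4 between the lines (BMP6 counted), and over all genes from 57 to 1749, 154 to 818, 193 to 1277, 24 to 945 and 236 to 1735. Log2 changes that turned sign ran, in HepG2, from -0.062 to 0.039 for BMP6, -0.50 to 2.54 for HAMP, -0.40 to 0.23 for SLC11A2, -1.78 to 0.67 for STEAP3 and -0.17 to 1.41 for TFRC. In Huh7 they ran from -1.90 to 3.57 for HAMP, -0.52 to 1.56 for HFE, -0.32 to 0.22 for SLC11A2, -0.11 to 0.12 for SLC39A14, -0.16 to 0.15 for SLC40A1, -0.56 to 1.63 for STEAP3, -0.92 to 3.04 for TFR2 and -0.57 to 0.81 for TFRC. Over both lines they ran from -0.44 to 2.30 for HAMP, -0.054 to 0.99 for HFE, -0.22 to 0.092 for SLC11A2, -0.62 to 0.60 for STEAP3, -0.67 to 1.31 for TFR2 and -0.023 to 0.76 for TFRC.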
